A study of Mus musculus with 4 samples.

Results

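Joins with insertions are DNA junctions that carry bases found in neither of the aligned ends. They were selected from deposited summaries of junctions that link breaks in Sμ (the switch region in front of the gene for the IgM constant part) with prey ends elsewhere in the mouse genome. In these summaries each junction is placed in a bin by the overlap (microhomology), direct contact (blunt) or insertion between its ends, and the joins described here are those in the bins of 1 to 30 inserted bp. They numbered 4992 of 18731 junctions, beside 3863 blunt joins and 9876 joins with microhomology. Deposited lists of longer insertions begin at 30 bp, and the longest insertion among the listed members had 29 bp, so the last bin held at most 29 bp in the tables examined.

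Splenic CD43- B cells were stimulated for 4 days with anti-CD40 (1 ng/mL) and IL-4 (20 ng/mL), which drives switching to IgG1 and IgE. Each genotype was represented by 1 library. CtIP_AA was homozygous for the CtIP substitution T855A, and its label names no Cre and no XRCC4 allele. CtIP_KO carried CD21Cre, CtIP C/- and XRCC4 +/C. XRCC4_KO carried CD21Cre, CtIP +/- and XRCC4 C/-, and so has a CtIP allele missing as well. Wildtype carried CD21Cre, CtIP +/C and XRCC4 +/C, so this control may also have lost 1 copy of each gene. CD21Cre acts in mature B cells, and the mice carried preassembled IgH and IgK loci. The strain is given as BL6 in one label and as 129Sv in another. With 1 library per genotype, every test below compares libraries by junction counts, and intervals cover counting error only.

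Class switching replaces one IgH constant gene by another through breaks that the deaminase AID starts in switch regions, which are long repeats rich in G and in the word AGCT. The broken ends are joined mostly by classical end joining, in which XRCC4 holds DNA ligase IV, and otherwise by pathways that use short homologies. CtIP promotes resection, the trimming of one strand at a broken end. Bases can be added at a join by DNA polymerases that copy nearby DNA or act without a template, and a polymerase error near an end can also leave bases that match neither side.

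Reads began at a nested primer in Sμ on the minus strand of chromosome 12 in mm9 (chr12:114664889-114664909) and continued through the bait to the break. The primer and the first 120 bases of the bait (chr12:114664790-114664909, 5′ to 3′ as read) are shown because every join printed here starts from this sequence. The capitals mark the AflII site, at which germline Sμ copies were cut.
nested primer: cacacaaagactctggacctc
Sμ bait: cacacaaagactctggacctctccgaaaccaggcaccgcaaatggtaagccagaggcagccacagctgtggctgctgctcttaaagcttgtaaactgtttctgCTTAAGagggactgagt

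Insertions could be read base by base in the deposited junction tables of part of the libraries. These tables listed 1636 of the 1662 members counted in the same classes: CtIP_AA in Sγ1 and Sμ, CtIP_KO in Sε, Sγ1, Sμ and outside IgH, XRCC4_KO in Sε and outside IgH, Wildtype outside IgH, and a few elsewhere in IgH in each library. Switch region tables of Wildtype were not used here. The 3 longest insertions in reads with a recorded read length are shown for each library because they are the additions most visible by eye. The XRCC4_KO join on chromosome 9 and the Wildtype join on chromosome 1 hold T-rich insertions and prey. The bait of each extends beyond the AflII site and the bait sequence shown above. Each line gives 20 bases of bait in lower case, the insertion in capitals, and 20 bases of prey in lower case, 5′ to 3′ as read.
CtIP_AA, Sμ, chromosome 12 at 114663409, minus strand: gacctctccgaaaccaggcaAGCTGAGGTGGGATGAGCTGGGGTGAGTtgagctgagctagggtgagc
CtIP_AA, Sγ1, chromosome 12 at 114574335, minus strand: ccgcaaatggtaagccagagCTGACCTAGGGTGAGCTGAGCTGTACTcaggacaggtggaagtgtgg
CtIP_AA, Sγ1, chromosome 12 at 114574392, minus strand: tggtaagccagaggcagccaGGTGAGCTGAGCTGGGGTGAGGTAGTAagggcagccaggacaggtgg
CtIP_KO, elsewhere in IgH, chromosome 12 at 114550924, minus strand: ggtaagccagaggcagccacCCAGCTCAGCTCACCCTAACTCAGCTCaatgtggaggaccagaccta
CtIP_KO, Sγ1, chromosome 12 at 114573715, minus strand: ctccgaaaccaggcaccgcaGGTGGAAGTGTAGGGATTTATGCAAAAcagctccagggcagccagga
CtIP_KO, Sε, chromosome 12 at 114515067, plus strand: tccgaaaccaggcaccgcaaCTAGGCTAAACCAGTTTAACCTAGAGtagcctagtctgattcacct
XRCC4_KO, outside IgH, chromosome 9 at 108305775, minus strand: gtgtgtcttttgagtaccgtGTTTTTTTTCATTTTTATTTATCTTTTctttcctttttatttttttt
XRCC4_KO, Sε, chromosome 12 at 114512851, plus strand: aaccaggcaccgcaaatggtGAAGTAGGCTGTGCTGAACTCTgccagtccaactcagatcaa
XRCC4_KO, outside IgH, chromosome 8 at 71335772, minus strand: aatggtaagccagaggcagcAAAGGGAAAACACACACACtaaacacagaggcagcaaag
Wildtype, outside IgH, chromosome 1 at 189063213, minus strand: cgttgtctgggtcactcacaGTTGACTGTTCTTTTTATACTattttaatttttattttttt
Wildtype, outside IgH, chromosome 2 at 179467978, plus strand: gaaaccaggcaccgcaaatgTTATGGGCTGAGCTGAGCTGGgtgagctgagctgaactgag
Wildtype, elsewhere in IgH, chromosome 12 at 114466188, plus strand: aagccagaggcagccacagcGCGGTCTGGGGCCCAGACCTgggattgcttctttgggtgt
The first 3 joins and the first of CtIP_KO hold repeats of the kind found in Sμ (GAGCT, or AGCTC on the other strand) at prey ends in Sμ, in Sγ1 and elsewhere in IgH. In the Wildtype join on chromosome 2 the insertion and the prey both read as such repeats. No printed insertion was found whole in the switch region sequence searched below. Outside IgH, the first 20 prey bases were sought in the prey sequences of switch region joins. They were found in 1 of 19 listed joins of CtIP_KO, 4 of 48 of XRCC4_KO and 9 of 82 of Wildtype.

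The share of junctions with an insertion was lowest in XRCC4_KO. It was 30.7% in CtIP_AA (988 of 3220 junctions, 95% Wilson interval 29.1% to 32.3%), 26.0% in CtIP_KO (664 of 2555, 24.3% to 27.7%), 20.2% in XRCC4_KO (710 of 3521, 18.9% to 21.5%) and 27.9% in Wildtype (2630 of 9435, 27.0% to 28.8%). By Fisher's exact test the odds of an insertion were lower in XRCC4_KO than in Wildtype, with an odds ratio of 0.654 (95% interval 0.594 to 0.718, adjusted p = 5.84e-19). CtIP_AA was above Wildtype by an odds ratio of 1.15 (1.05 to 1.25), which did not pass the threshold of 0.05 in Fisher's exact test (adjusted p = 0.0593). For CtIP_KO over Wildtype the test did not pass (odds ratio 0.909, 0.821 to 1.00, exact test, adjusted p = 0.332). Counting insertions over 30 bp as well turned it to 1.30, which passed. CtIP_AA was above CtIP_KO by an odds ratio of 1.26 (1.12 to 1.42, Fisher's exact test, adjusted p = 0.00231), which was 1.01 and no longer passed with insertions over 30 bp counted. With these, CtIP_AA over Wildtype was 1.31 and passed (exact test, adjusted p = 4.08e-10). The list of such insertions for XRCC4_KO was not used here, and XRCC4_KO was below CtIP_KO by 0.719 (0.636 to 0.813, Fisher's exact test, adjusted p = 4.22e-07).

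**Figure D1:**
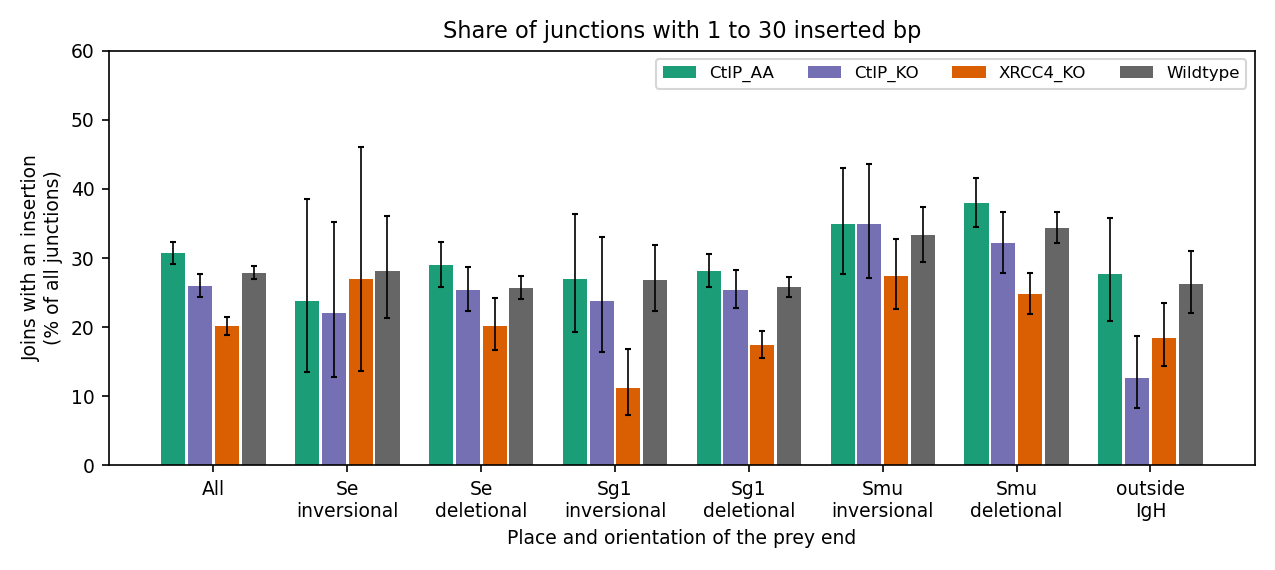
Share of junctions with 1 to 30 inserted bp, in percent of all junctions of each place and orientation of the prey end (Se is Sε, Sg1 is Sγ1, Smu is Sμ), with bars in the order CtIP_AA, CtIP_KO, XRCC4_KO and Wildtype and 95% Wilson intervals. XRCC4_KO is below Wildtype in each place, Sμ stands above Sγ1 in each library, and CtIP_KO is lowest outside IgH at 12.7%.

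The lower share in XRCC4_KO went with more joins by microhomology, and its direction depended on what insertions were counted against. Microhomology was present in 2367 of 3521 junctions in XRCC4_KO, against 4706 of 9435 in Wildtype. Blunt joins numbered 444 in XRCC4_KO and 2099 in Wildtype. Among insertion and blunt joins alone, insertions made up 61.5% in XRCC4_KO and 55.6% in Wildtype, an odds ratio of 1.28 in the opposite direction (Fisher's exact test, adjusted p = 0.00241). The same share was 58.2% in CtIP_AA and 52.1% in CtIP_KO. Thus blunt joins were reduced relative to Wildtype by more than insertions were.

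By place and orientation, XRCC4_KO was below Wildtype in all 7 columns and passed the test in 5 of them. All classes of joins are shifted between these libraries, since 75% of the 24 tests over insertions, blunt joins and microhomology passed, 45.8% of the 24 with a lower share in XRCC4_KO. In Sγ1 the share was 11.2% of inversional junctions (plus strand) in XRCC4_KO and 26.8% in Wildtype, with an odds ratio of 0.344 (0.190 to 0.597, Fisher's exact test, adjusted p = 7.32e-05). In deletional Sγ1 junctions (minus strand, the orientation that yields a switched chromosome) it was 17.4% in XRCC4_KO and 25.8% in Wildtype, an odds ratio of 0.606 (exact test, adjusted p = 3.6e-10). Deletional Sμ junctions had insertions in 24.7% in XRCC4_KO and 34.4% in Wildtype, an odds ratio of 0.627 (exact test, adjusted p = 1.47e-06). Deletional Sε junctions had 20.2% in XRCC4_KO and 25.7% in Wildtype, an odds ratio of 0.731 (exact test, adjusted p = 0.0195). Outside IgH it was 18.5% in XRCC4_KO (51 of 276) and 26.3% in Wildtype (96 of 365), an odds ratio of 0.636 (exact test, adjusted p = 0.0302). Inversional Sμ (27.5% in XRCC4_KO, 33.3% in Wildtype) and inversional Sε (26.9% of 26 junctions in XRCC4_KO, 28.1% of 139 in Wildtype) did not pass. Against insertion and blunt joins alone none of these 5 columns passed, and deletional Sγ1 (1.16), deletional Sμ (1.35) and outside IgH (1.12) turned. Over all junctions, the odds ratios of the 7 columns ran between 0.344 and 0.945 and did not differ beyond counting error among themselves in Woolf's test of homogeneity (chi-square 8.58 on 6 degrees of freedom, with a small constant added to each cell).

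In the CtIP libraries the only column to pass was that of junctions outside IgH in CtIP_KO. None of the 7 columns passed for CtIP_AA over Wildtype by Fisher's exact test, where 0% of the 24 tests over all join classes passed and no insertion column reached an unadjusted p under 0.05. CtIP_AA was nonetheless above Wildtype in 6 of 7 columns, from 38.0% against 34.4% in deletional Sμ to 27.0% against 26.8% in inversional Sγ1, with inversional Sε the exception at 23.8% of 42 junctions in CtIP_AA against 28.1% in Wildtype. For CtIP_KO over Wildtype 1 of 7 columns passed, against 4.17% of the 24 tests. That column was the junctions outside IgH, with insertions in 12.7% in CtIP_KO (20 of 158) and 26.3% in Wildtype (96 of 365), an odds ratio of 0.407 (0.228 to 0.698, Fisher's exact test, adjusted p = 0.0129). Within CtIP_KO the same 12.7% stood against 27.0% of its switch region junctions, an odds ratio of 0.392 (0.230 to 0.636, exact test, adjusted p = 0.000261). Against insertion and blunt joins alone these became 47.6% in CtIP_KO and 70.6% in Wildtype, an odds ratio of 0.381 that did not pass in the exact test (adjusted p = 0.0731). Between the CtIP libraries, 12.5% of the 24 tests passed, 8.33% with a higher share in CtIP_AA. The insertion share outside IgH was 27.7% in CtIP_AA (38 of 137) and 12.7% in CtIP_KO, an odds ratio of 2.64 (1.40 to 5.10, exact test, adjusted p = 0.0117).

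XRCC4_KO was also below CtIP_KO in 5 of 7 columns, all of them in the switch regions. Here 3 of 7 columns passed with a lower share, against 45.8% lower and 70.8% in either direction of the 24 tests. Deletional Sγ1 junctions had insertions in 17.4% in XRCC4_KO and 25.4% in CtIP_KO, an odds ratio of 0.620 (0.504 to 0.761, exact test, adjusted p = 1.03e-05). Inversional Sγ1 had 11.2% in XRCC4_KO and 23.7% in CtIP_KO (0.406, exact test, adjusted p = 0.0139), and deletional Sμ had 24.7% in XRCC4_KO and 32.1% in CtIP_KO (0.695, exact test, adjusted p = 0.0110). Outside IgH the order was the other way, 18.5% in XRCC4_KO and 12.7% in CtIP_KO, without passing the test (1.56, 0.872 to 2.89, exact test, adjusted p = 0.166). So it was in inversional Sε, with 26.9% of 26 junctions in XRCC4_KO and 22.0% of 50 in CtIP_KO, also without passing. Against insertion and blunt joins alone the total turned to 1.47 and the 3 columns to 1.21, 1.09 and 1.42.

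Insertions were more frequent at prey ends in Sμ than in Sγ1 in every library. The shares were 37.5% in Sμ and 28.0% in Sγ1 in CtIP_AA (odds ratio 1.54, 1.28 to 1.85, exact test, adjusted p = 3.47e-05) and 32.7% in Sμ and 25.2% in Sγ1 in CtIP_KO (1.44, 1.15 to 1.82, exact test, adjusted p = 0.00969). They were 25.4% in Sμ and 16.7% in Sγ1 in XRCC4_KO (1.70, 1.40 to 2.06, exact test, adjusted p = 9.85e-07) and 34.1% in Sμ and 25.9% in Sγ1 in Wildtype (1.49, 1.33 to 1.66, exact test, adjusted p = 1.69e-10). These 4 were among 8 of 48 tests within libraries that passed (16.7%, 14.6% higher and 2.08% lower in the first place). Sε and Sγ1 could not be told apart in their insertion share in any library. None of the 24 tests between inversional and deletional joins passed Fisher's exact test after adjustment, and 3 had an unadjusted p under 0.05. These were the lower share in inversional Sγ1 of XRCC4_KO (11.2% inversional, 17.4% deletional) and the higher part of insertions over 4 bp in inversional Sμ of XRCC4_KO (51.9% inversional, 37.6% deletional) and of Wildtype (43.8% inversional, 35.0% deletional).

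Most insertions were short, and XRCC4_KO had fewer of 1 bp and more of 7 to 8 bp. Insertions of 1 bp made up 37.1% of insertions in CtIP_AA, 37.7% in CtIP_KO, 27.5% in XRCC4_KO and 35.5% in Wildtype. Those of 2 bp made up 13.5%, 12.0%, 13.9% and 12.4% in the same libraries, and the bin of 3 to 4 bp 22.5%, 24.7%, 19.4% and 22.7%. Where lengths could be read exactly, CtIP_KO had 249 insertions of 1 bp, 80 of 2 bp, 100 of 3 bp and 64 of 4 bp, and CtIP_AA had 257 of 1 bp, 97 of 2 bp, 90 of 3 bp and 70 of 4 bp. In its listed Sε and other joins XRCC4_KO had 38 of 1 bp, 27 of 2 bp, 16 of 3 bp and 12 of 4 bp, and Wildtype outside the switch regions had 16, 11, 10 and 13. Only 1 bp thus stood apart in both CtIP libraries, with no common order of 2 and 3 bp. The bin of 7 to 8 bp held 3.44% of insertions in CtIP_AA, 4.82% in CtIP_KO, 9.44% in XRCC4_KO and 4.79% in Wildtype. Insertions over 20 bp held between 2.36% (Wildtype) and 2.68% (XRCC4_KO) in all 4 libraries.

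**Figure D2:**
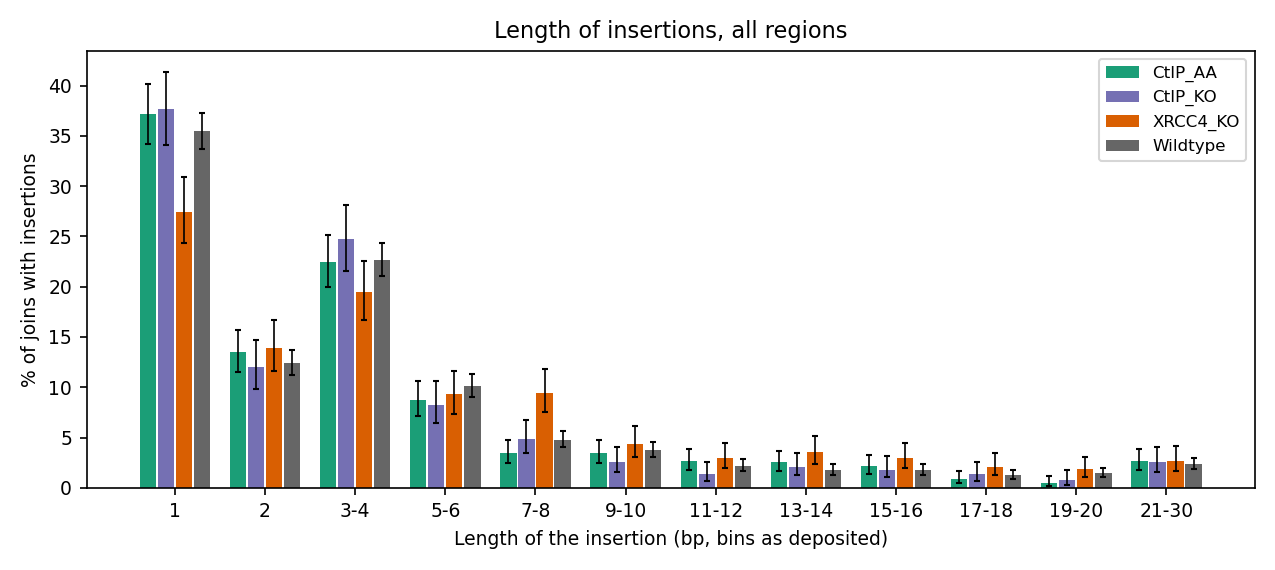
Length of insertions in the deposited bins (horizontal axis, bp), as percent of all joins with 1 to 30 inserted bp in each library (vertical axis), with 95% Wilson intervals. XRCC4_KO is lowest at 1 bp (27.5%) and stands apart from the other libraries at 7 to 8 bp (9.44%).

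As a share of all junctions, 4 of 12 insertion bins passed in XRCC4_KO over Wildtype, where 55% of all 20 join-length bins passed (25% lower, 30% higher). Insertions of 1 bp ended 5.54% of junctions in XRCC4_KO and 9.89% in Wildtype, an odds ratio of 0.534 (0.453 to 0.627, exact test, adjusted p = 2.17e-15). Those of 3 to 4 bp made up 3.92% in XRCC4_KO and 6.32% in Wildtype (0.605, exact test, adjusted p = 1.66e-07), and those of 5 to 6 bp 1.87% in XRCC4_KO and 2.82% in Wildtype (0.658, exact test, adjusted p = 0.00431). The bin of 7 to 8 bp was higher, with 1.90% in XRCC4_KO (67 joins) and 1.34% in Wildtype (126 joins), an odds ratio of 1.43 (1.05 to 1.95, exact test, adjusted p = 0.0403). The 2 bp bin, 2.81% in XRCC4_KO and 3.46% in Wildtype, did not pass. Over CtIP_KO, XRCC4_KO was lower in 2 of 12 bins, 1 bp and 3 to 4 bp, against 40% of the 20 bins passing in either direction and 20% lower. No bin passed for CtIP_AA over Wildtype, CtIP_KO over Wildtype or CtIP_AA over CtIP_KO by Fisher's exact test (0% of the 20 bins in each). Unadjusted p-values under 0.05 were found in 2, 0 and 2 of the 12 insertion bins in these pairs.

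Insertions in XRCC4_KO were therefore longer as a set. Over 4 bp were 39.2% of insertions in XRCC4_KO and 29.5% in Wildtype, an odds ratio of 1.54 (1.29 to 1.84, Fisher's exact test, adjusted p = 2.0e-05). Over 10 bp were 16.1% in XRCC4_KO and 10.8% in Wildtype (1.58, 1.24 to 2.01, exact test, adjusted p = 0.000962). With 1 bp lower (odds ratio 0.689, 0.570 to 0.830, exact test, adjusted p = 0.000421), 5 of 15 length measures passed over all places and single regions, 33.3% with 26.7% higher and 6.67% lower. The other 2 were in Sγ1, with over 4 bp in 35.7% in XRCC4_KO and 26.4% in Wildtype (1.55, exact test, adjusted p = 0.0111) and over 10 bp in 15.8% in XRCC4_KO and 9.00% in Wildtype (1.90, exact test, adjusted p = 0.00819). XRCC4_KO was also above Wildtype in the part over 4 bp in Sε (26.3% in XRCC4_KO, 21.5% in Wildtype), in Sμ (41.6% in XRCC4_KO, 37.0% in Wildtype) and outside IgH (66.7% in XRCC4_KO, 54.2% in Wildtype), each without passing. The odds ratios of the 4 places did not differ beyond counting error in the same test (chi-square 1.78 on 3 degrees of freedom).

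**Figure D3:**
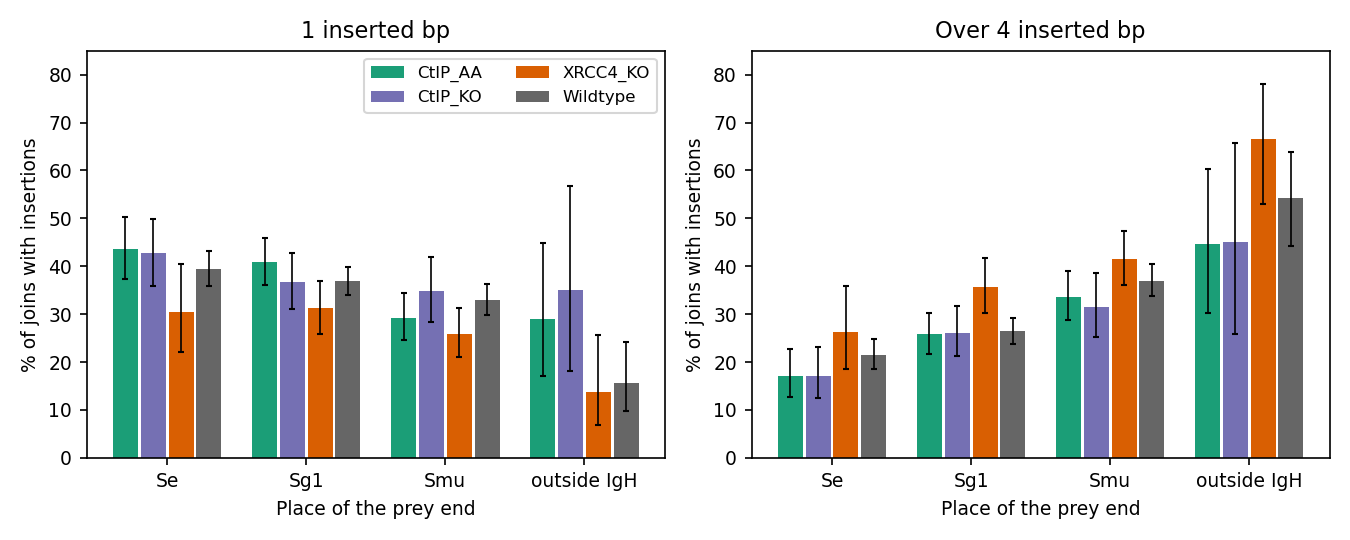
Insertions of 1 bp (left) and over 4 bp (right), in percent of the joins with 1 to 30 inserted bp at prey ends in Se (Sε), Sg1 (Sγ1), Smu (Sμ) and outside IgH, with bars in the order CtIP_AA, CtIP_KO, XRCC4_KO and Wildtype and 95% Wilson intervals. The part over 4 bp is higher in XRCC4_KO than in Wildtype in each place and is highest outside IgH in each library.

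XRCC4_KO and CtIP_KO differed in length in the same way, with over 4 bp in 39.2% in XRCC4_KO and 25.6% in CtIP_KO (1.87, 1.48 to 2.37, exact test, adjusted p = 1.23e-06), and 3 of 15 measures passed (20%, with 13.3% higher and 6.67% lower). Over 10 bp were 16.1% in XRCC4_KO and 9.94% in CtIP_KO (1.73, exact test, adjusted p = 0.00386), which was 1.47 and did not pass over deletional switch joins alone (exact test, adjusted p = 0.0899). No length measure passed for CtIP_AA over Wildtype, for CtIP_KO over Wildtype or for CtIP_AA over CtIP_KO by Fisher's exact test (0% of 15 in each, with 0, 1 and 0 unadjusted p-values under 0.05). Over 4 bp were 26.9% in CtIP_AA, 25.6% in CtIP_KO and 29.5% in Wildtype.

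Within libraries, insertions at prey ends outside IgH were longer than those in the switch regions, counted over all joins. Among listed joins outside IgH with a recorded read length, over 4 bp were 59.4% in XRCC4_KO, 27.3% in Wildtype and 20.0% of 10 in CtIP_KO. The Wildtype and CtIP_KO values do not exceed those of their switch regions, given below for all joins. Over 4 bp were 66.7% outside IgH and 36.9% in the switch regions in XRCC4_KO (odds ratio 3.41, 1.81 to 6.65, exact test, adjusted p = 0.000289), and 54.2% outside IgH and 28.4% in the switch regions in Wildtype (2.97, 1.93 to 4.59, exact test, adjusted p = 4.24e-06). In CtIP_AA the part over 4 bp was 44.7% of 38 insertions outside IgH and 26.4% in the switch regions, and in CtIP_KO 45.0% of 20 outside IgH and 25.0% in the switch regions. Neither passed (exact test, adjusted p = 0.101 and 0.172). In Wildtype insertions in Sμ were also longer than in Sγ1, with over 4 bp in 37.0% in Sμ and 26.4% in Sγ1 (1.63, 1.33 to 2.01, exact test, adjusted p = 1.57e-05). With over 2 bp in place of over 4 bp, the odds ratio outside IgH in XRCC4_KO was 1.78 and that of Sμ over Sγ1 in Wildtype 1.25, and neither passed.

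Length outside IgH moved with a gap in the read records. Some listed joins carry no read length, among them 16 of 48 outside IgH in XRCC4_KO and 38 of 82 in Wildtype. Of joins without a read length, 81.3% in XRCC4_KO and 76.3% in Wildtype had over 4 inserted bp. Of joins with one, it was 59.4% in XRCC4_KO (19 of 32) and 27.3% in Wildtype (12 of 44), an odds ratio of 3.82 (1.34 to 11.5, Fisher's exact test, adjusted p = 0.0220, computed after the data were seen). In CtIP_KO over 4 bp were 6 of 9 without a read length and 2 of 10 with one. Over all listed places, a read length was missing for 44.4% of insertions of 11 to 30 bp and 10.2% of those of 1 to 10 bp in XRCC4_KO, and for 88.0% and 24.7% in Wildtype, whose listed joins lie mostly outside IgH. In CtIP_AA these were 23.3% of the longer and 10.1% of the shorter, and in CtIP_KO 26.6% of the longer and 10.4% of the shorter. The sources used here do not say what a missing read length stands for, and its part in the length outside IgH was not tested further.

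Single inserted bases were mostly A or T. In the switch region tables with both flanks known, 503 insertions of 1 bp were 220 A, 161 T, 63 G and 59 C, so that A and T made up 75.7% (95% Wilson interval 71.8% to 79.3%). An aligner extends an end over every matching base, so a single inserted base differs from the next bait base and from the base before the prey, and no listed insertion broke this (0 of 1566 at the bait and 0 of 1636 at the prey). Since the flanks are rich in G and C, the bases still allowed lean to A and T, and equal use of the allowed bases would give 65.1%. The measured part of A and T was 80.3% in Sγ1 and 76.7% in Sμ of CtIP_AA, 77.5% in Sε, 68.8% in Sγ1 and 71.7% in Sμ of CtIP_KO, and 75.0% in Sε of XRCC4_KO. Equal use would give 66.9% and 67.2% in those CtIP_AA tables, 62.7%, 64.2% and 65.3% in those of CtIP_KO, and 57.7% in that of XRCC4_KO, so each table lay above it. The 95% Wilson interval lay above the equal-use value for Sγ1 of CtIP_AA and Sε of CtIP_KO, and it held that value in the other 4 tables. None of 25 comparisons of a base between libraries passed Fisher's exact test after adjustment, and 1 had an unadjusted p under 0.05 (C outside IgH, 5 of 7 in CtIP_KO against 2 of 14 in Wildtype).

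In the switch region tables insertions of 11 to 30 bp were richer in G and C than all insertions together. Among insertions of 3 or more bp, G and C made up more of the bases away from the ends. Over all inserted bases, G and C made up 44.2% in Sγ1 and 53.7% in Sμ of CtIP_AA, 40.3% in Sε, 41.2% in Sγ1 and 53.6% in Sμ of CtIP_KO, and 45.5% in Sε of XRCC4_KO. In insertions of 11 to 30 bp they made up 51.7% and 58.4% in those tables of CtIP_AA, 52.4%, 47.6% and 55.2% in those of CtIP_KO, and 52.8% in that of XRCC4_KO. The joins in Sγ1 of CtIP_KO include reads whose bait does not start at the Sμ primer, and without such reads G and C made up 52.8% there and 53.6% in Sγ1 of CtIP_AA. Insertions of 5 to 10 bp already held 58.2% G and C in Sμ of CtIP_AA and 62.1% in Sμ of CtIP_KO. In the other switch region tables they held less than those of 11 to 30 bp. In the same joins with long insertions, the first 30 prey bases held 60.6% G and C in Sγ1 and 62.2% in Sμ of CtIP_AA, 54.5% in Sε, 62.9% in Sγ1 and 62.1% in Sμ of CtIP_KO, and 46.2% in Sε of XRCC4_KO. The long insertions had less G and C than their prey in each of these tables except that of XRCC4_KO, which held 7 joins. Over 725 switch region insertions of 3 or more bp, G and C made up 35.0% of first bases, 54.6% of middle bases and 37.7% of last bases, the outer ones being the bases that must differ from their neighbour. Outside IgH, G and C made up 56.1% of inserted bases in CtIP_KO (139 bases), 45.7% in XRCC4_KO and 49.2% in Wildtype. Bases of 1 insertion share a join, so these shares have no test.

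A large part of the insertions of 2 to 4 bp continued 1 of the unbroken ends after a single differing base. An insertion was counted for the bait when all its bases after the first equal the bait that continues past the break, and for the prey when all its bases before the last equal the genome before the prey. The longest join that matched 1 side alone, at the lowest position, is shown for each side and each CtIP_KO switch region, with the differing base given as the unrearranged base, its position counted from 1 at the 5′ end of the insertion, and the inserted base.
CtIP_KO, Sε at 114513552, continues the bait with G1C: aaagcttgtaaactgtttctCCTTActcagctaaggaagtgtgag
CtIP_KO, Sε at 114513404, continues the prey with C5T: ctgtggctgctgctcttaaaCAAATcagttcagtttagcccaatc
CtIP_KO, Sγ1 at 114570955, continues the bait with G1T: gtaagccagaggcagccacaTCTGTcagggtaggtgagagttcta
CtIP_KO, Sγ1 at 114573614, continues the prey with G5C: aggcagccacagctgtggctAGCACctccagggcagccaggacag
CtIP_KO, Sμ at 114664053, continues the bait with G1C: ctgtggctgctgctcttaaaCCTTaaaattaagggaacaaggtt
CtIP_KO, Sμ at 114662869, continues the prey with C5G: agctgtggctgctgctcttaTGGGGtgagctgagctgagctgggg
Each such join can also be read as an end that runs further, with 1 substituted base, to a blunt or overlapping join.

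Over all listed joins, the bait side matched in 53.6% of 209 insertions of 2 bp, 29.5% of 210 of 3 bp, 27.2% of 151 of 4 bp and 18.2% of 88 of 5 bp, and in 0 of 50 of 6 bp and 0 of 133 of 7 to 10 bp. Bases on the other side of the insertion, compared with the bait in the same way, matched in 22.0%, 7.62%, 1.32% and 0% of the lengths of 2, 3, 4 and 5 bp. The prey side matched in 44.0%, 37.1%, 23.8% and 14.8%, and in 0 of 50 of 6 bp and 0 of 133 of 7 to 10 bp, against 23.9%, 5.24%, 0% and 1.14% for bases on the other side. No insertion of 6 to 10 bp matched on either side. Whether the alignment would extend an end across 1 differing base into a match of this length was not tested. The values of 0 therefore do not show that such joins were absent. Of insertions of 2 to 4 bp, at least 1 side matched in 64.1% in CtIP_AA, 68.9% in CtIP_KO, 71.2% in XRCC4_KO and 43.8% of 32 in Wildtype, whose joins were not from the switch regions. The libraries share no complete set of regions here, and these shares were not compared by a test. For a match on at least 1 side, no share for bases on the other side of the insertion was computed.

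**Figure D4:**
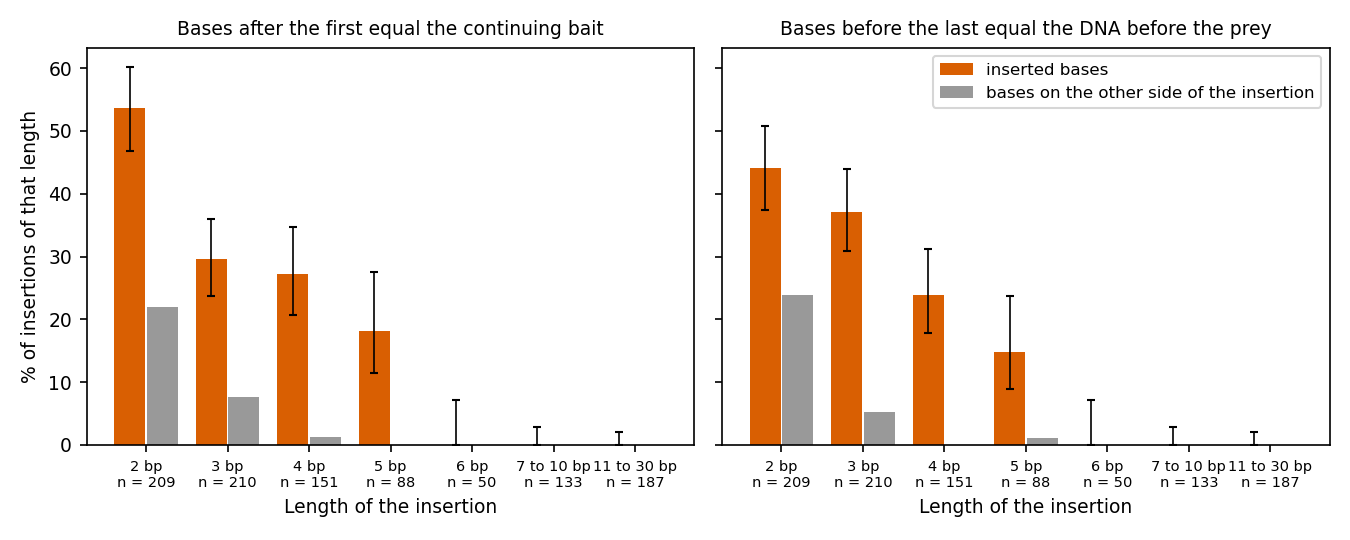
Insertions whose bases after the first equal the continuing bait (left) or whose bases before the last equal the DNA before the prey (right), in percent of the listed insertions of each length (horizontal axis), all libraries together, with 95% Wilson intervals, beside the same share for the bases on the other side of the insertion. The match falls with length, from 53.6% (bait) and 44.0% (prey) at 2 bp to 18.2% and 14.8% at 5 bp and 0 at 6 bp and over. Whether the alignment can leave a match of 6 bp or over as an insertion was not tested. At 11 to 30 bp the prey side could not be examined fully, because only 10 genomic bases beside the junction are deposited.

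Insertions of 11 to 30 bp in joins to Sμ were often stretches of Sμ. The prey parts of deposited blunt joins, read from 850 joins in Sμ, 1691 in Sγ1 and 1168 in Sε, served as known switch region sequence, and each insertion was searched whole in it on both strands. In joins to Sμ, 21 of 41 long insertions in CtIP_AA (51.2%, 95% Wilson interval 36.5% to 65.7%) and 10 of 21 in CtIP_KO (47.6%, 28.3% to 67.6%) were found in Sμ sequence. Counted separately, 6 of the 41 in CtIP_AA were found in Sε, 3 elsewhere on chromosome 12 and 5 on other chromosomes. In CtIP_KO these were 1, 0 and 0 of 21. An insertion can count in more than 1 place. In CtIP_AA 10 of the 41, and in CtIP_KO 1 of the 21, were found in the bait or prey of their own read. As a measure of what the search can find, prey bases of the same joins and lengths were found in Sμ in 40 of 41 in CtIP_AA and 19 of 21 in CtIP_KO. In joins to Sγ1, 4 of 48 in CtIP_AA and 1 of 22 in CtIP_KO were found in Sμ, and 5 of 48 in CtIP_AA and 2 of 22 in CtIP_KO in Sγ1. How often the search finds prey bases of equal length in Sγ1 was not measured, so these values cannot be set against those in Sμ. Outside IgH, 1 of 6 in CtIP_KO, 2 of 18 in XRCC4_KO and 1 of 24 in Wildtype were found in Sμ. The letters AGCT, which read the same on both strands, were present in 78.0% of long insertions in joins to Sμ in CtIP_AA and 76.2% in CtIP_KO, beside 92.7% and 85.7% of prey stretches of equal length from these joins. In joins to Sγ1 AGCT was present in 33.3% of long insertions in CtIP_AA and 22.7% in CtIP_KO, beside 22.9% and 45.5% of such prey stretches. A short repeat can be found in many places, so a match names a kind of sequence and not the place it came from.

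Up to 4 recurring inserted sequences of 4 or more bp are listed per library, each in 6 joins or fewer. The number that recurred in all was not counted. Ordered by distinct prey positions, GAGC came first in CtIP_AA, in 6 joins to Sμ at 4 positions, and GAGA and TAGA were each in 3 joins at 3 positions. In CtIP_KO they were ACTT in 5 joins and CAGA, CCTT and TAGT in 4 joins each, all at distinct positions. In XRCC4_KO AATATGTCT and TCTT were each found in 2 joins, and in Wildtype CCCT in 2. A longer sequence of 16 bp recurred in both CtIP libraries, at 3 positions in each, and is shown because of where the bait of its reads lay.
recurrent insertion, Sγ1, CtIP_AA and CtIP_KO: AGGGATTTATGCAAAA
It was the whole insertion in 4 joins of CtIP_AA and 5 of CtIP_KO, and in none of these 9 did the bait alignment start at the primer: it lay in Sγ1, from position 114573829 of chromosome 12. As the files align them, these 9 joins do not start from the Sμ bait. In CtIP_KO the same 16 bases were also part of 2 longer insertions whose bait starts at the primer, among them the 27 bp insertion shown above. Over all listed members 62 (3.79%) had a bait alignment that did not start at the primer.

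Across libraries, 3 listed insertion joins in Sγ1 were shared by CtIP_AA and CtIP_KO, 1 elsewhere in IgH by CtIP_KO and Wildtype, and 0 in the other pairs of tables. XRCC4_KO and Wildtype shared 22 blunt joins (5.54% of 397 distinct ones in XRCC4_KO, 1.18% of 1867 in Wildtype). In the other pairs the shared ones made up 0.305% to 2.56% of those of the library named first, in the order used above. The tables of Sγ1 and Sμ insertions that would show the same for XRCC4_KO were not used here.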

How the data were processed

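Per the labels' protocols, genomic DNA was amplified linearly from a biotinylated Sμ primer, then by nested PCR with AflII digestion, and read on a MiSeq. The submitters' processing notes name mm9 and Bowtie2. The sources used here do not give how junctions were called, filtered and made unique. The values used are numbers of junctions per bin as the authors deposited them, with bins from microhomology to insertions, and tables of 1 line per junction with read, bait and prey alignments and the inserted part. A summary row can be read as a count, yet it is a count of junctions and not of reads. Of 1636 listed insertions, 98 were repeats of another listed join. In CtIP_AA these were 35 of 392 in Sγ1 and 20 of 317 in Sμ. In CtIP_KO they were 23 of 262 in Sγ1, 15 of 183 in Sμ and 0 of 192 in Sε. Tests and intervals on the summary counts treat every junction as independent. Depth was 2555 to 9435 junctions per library.

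From these the share of insertions was computed per library, place and strand, with 95% Wilson intervals. Libraries were compared by two-sided Fisher's exact tests with conditional odds ratios and exact 95% intervals, adjusted by Benjamini-Hochberg within each pair over 24 tests of class and column, 20 bins or 15 length measures, over 48 tests within libraries and over 25 tests of bases, with a threshold of 0.05. The bait sequence was rebuilt from the reads, since no mm9 genome was used here. The first 8 prey bases equalled the deposited genomic bases in 94.7% of 6042 lines. Emptied lines (72 in the junction tables used for inserted bases) were left out of those tables. Emptied lines in the lists of insertions over 30 bp were counted.

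Sequences were printed by a rule, per library. These were the up to 4 inserted sequences of 4 or more bp at the most distinct prey positions. The up to 3 longest in reads with a recorded length were added. The joins that continue an end by 1 differing base were picked by length and position after their values were seen. Members, lists and measures were chosen with earlier results of these data known. Alternatives changed the denominator, strands, places, length limits and repeats. Added after seeing the data were Woolf's test, joins with a recorded read length, joins listed in both libraries left out, the prey side of the match, long insertions with the bait from the primer only and the search of whole insertions. The Fisher test was checked on simulated junction counts. Statistics used scipy 1.17.1 with numpy 2.4.6 and pandas 2.3.3 under Python 3.11.15, and figures matplotlib 3.10.9.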

Additional observations from a re-analysis of the deposited data

Results flagged for a closer look

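Insertions over 30 bp are listed apart from the bins described above and outside their totals. In junctions that include them, they made up 12.2% in CtIP_AA (447 lines) and 17.4% in CtIP_KO (539 lines), against 7.00% in Wildtype (710 lines, 95% Wilson interval 6.52% to 7.51%), and both values are set apart here because they lie in data outside the main measurement and above Wildtype. The lines include emptied ones, 9 in CtIP_AA, 11 in CtIP_KO and 18 in Wildtype. Of the remaining lines, a read length is missing for 69.6% in CtIP_AA, 73.9% in CtIP_KO and 74.6% in Wildtype. Of them, 2 in CtIP_KO and 6 in Wildtype had 30 bp or less. The list for XRCC4_KO was not used here.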

How the results depend on the processing

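Of 275 alternative values for 158 results, 243 stayed on the same side of the threshold or moved little. These include values that changed direction where neither value passed. An example is inversional Sμ, with insertions in 75.7% of insertion and blunt joins in XRCC4_KO and 68.5% in Wildtype, but in fewer of all junctions in XRCC4_KO (odds ratio 0.757). Values below are odds ratios unless named, and the cause of each change was not tested. Counting insertions over 30 bp gave 1.31 for CtIP_AA over Wildtype (adjusted p = 4.08e-10 by Fisher's exact test). It gave 1.30 for CtIP_KO over Wildtype (turned and now past the threshold) and 1.01 for CtIP_AA over CtIP_KO (no longer past the threshold). Deletional switch joins alone gave 1.17 for CtIP_AA over Wildtype (now past the threshold, exact test, adjusted p = 0.0379) and 1.47 for insertions over 10 bp in XRCC4_KO over CtIP_KO (no longer past it). Against insertion and blunt joins only, XRCC4_KO over Wildtype turned to 1.28 in total, 1.16 in deletional Sγ1, 1.35 in deletional Sμ and 1.12 outside IgH, and XRCC4_KO over CtIP_KO to 1.47 in total, 1.09 and 1.21 in inversional and deletional Sγ1 and 1.42 in deletional Sμ. Bins past the threshold then numbered 2 and 1 in these pairs, and the share outside IgH over the switch regions in Wildtype turned to 1.95 (0.918 before). G and C in CtIP_AA Sγ1 were 46.6% without 1 bp insertions, whose bases are no longer counted, and those of 11 to 30 bp in CtIP_KO Sγ1 were 52.8% with the bait from the primer only (47.6% before). Among insertions of 4 or more bp, the bait match was 8.15% in CtIP_AA, 12.5% in CtIP_KO, 9.09% in XRCC4_KO and 3.51% in Wildtype. With over 2 bp in place of over 4 bp, insertions outside IgH in XRCC4_KO (1.78) and in Sμ in Wildtype (1.25) no longer passed. No paired analysis was possible because each genotype is 1 library. Places with few insertions (7 in inversional Sε of XRCC4_KO) leave wide intervals.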
